A study of Rattus norvegicus with 15 samples.

Results

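Potassium channel subunits were followed along the digestive tract of the rat. They were taken as all non-control probes whose gene name on the array begins with Kcn, with the brightest probe standing for each gene. The array held 110 such probes for 88 genes. A gene was tested when its probe was well above background, as the scanner software flags it, in every sample of at least 1 segment, and 82 of the 88 genes (of 33825 genes in all) met this. The other 6 were Kcnb2, Kcnc2, Kcnf1, Kcnj1, Kcnmb4 and Kcnn2, which were well above background in at most 3 of 15 samples. The samples are mucosal cell suspensions of male Sprague Dawley rats: 3 of stomach, 3 of duodenum, 3 of jejunum, 3 of ileum and 3 of colon. No treatment of the animals is given. All cells had been freed by pronase and elutriated, so every group shared that handling. The labels give no age, and whether the 3 isolations of a segment used separate animals is not stated. All p-values therefore cover the spread between isolations alone.

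Potassium channels pass potassium ions across the cell membrane and set the membrane voltage. In secreting epithelia, a basolateral potassium exit keeps the cell negative inside and so drives chloride out across the apical side, while apical channels of the acid-secreting parietal cell return to the lumen the potassium that the proton pump takes up. The pores fall into voltage-gated, inwardly rectifying, tandem-pore and calcium- or sodium-activated families, and accessory subunits change their gating.

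Levels are given as the log2 of the processed intensity relative to the 75th percentile of the same sample, so a level of 0 is that percentile. Differences are log2 differences fitted by limma with their standard error (SE), and p-values are adjusted over all genes tested. The array reads each probe with its own efficiency, so levels are compared between samples and never between genes. The share of all probes well above background ran from 95.4 to 97.1% in the stomach, where the software set a lower limit than in the small bowel (a multiplier of 2.6 against 13 in the file headers), and from 44.2% (ileum 1) to 92.4% (duodenum 3) elsewhere. All 82 tested members counted as above background in every stomach sample, against 41 to 79 in the samples of duodenum and jejunum, 24 to 69 in the ileum and 58 to 76 in the colon. Of the 82, 18 passed through the stomach alone. The stomach was scanned on a day and with a software version of its own. The 3 colon samples lay on 1 slide, with scan days and a software version that no other segment had. Colon 1 and colon 2 were the Cy3 and Cy5 channels of 1 array, so the 3 colon samples are not 3 separate arrays. In every contrast with stomach or colon, the effects of tissue and of scan therefore cannot be told apart. The ileum samples also had slides and scan days of their own, though ileum 1 shared its software version with duodenum and jejunum. Marker lists of the segments went with the labels: all 7 stomach epithelium markers were higher in stomach than in small bowel, all 6 small bowel markers were lower in stomach and in colon than in small bowel, both ileal markers were higher in ileum than in jejunum, and 4 of 5 colon markers were higher in colon than in small bowel. In these bulk suspensions, fewer cells of a type and less RNA per cell cannot be told apart.

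As over all genes, calls among the potassium channel genes were more frequent for stomach and colon than within the small bowel. Over the 5 segments, the F test called 33 of 82 members (40.2%), beside 42% of all genes. By family, these were 15 of 36 voltage-gated genes, 8 of 14 inward rectifiers, 4 of 11 tandem-pore genes, 2 of 7 calcium- or sodium-activated genes and 4 of 14 accessory genes. In the stomach, 20 members were higher than in the small bowel (the mean of duodenum, jejunum and ileum, 9 samples), or 24.4% beside 15.5% of all genes, and 4 were lower (4.88% beside 11.8%). In the colon, 8 were higher than in the small bowel (9.76% beside 12.5%) and 14 were lower (17.1% beside 13.1%). Between the ends, 25 were higher in stomach than in colon (30.5% beside 20.8%) and 7 were lower (8.54% beside 14.4%). The jejunum differed from the duodenum in 1 member and from the ileum in 5.

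The stomach counts lean on the filter, the background correction and the random block, and less on the scaling. Of the 20 members higher in stomach than in small bowel, 8 had passed the filter through the stomach alone, where the limit was looser (Kcna2, Kcnh2, Kcnj2, Kcnj8, Kcnj11, Kcnj16, Kcnk2 and Kcnq3), and 12 had not. Without the stomach's flags in the filter, 64 members were left, with 12 higher and 4 lower. Their median difference was 0.25, beside 0.20 over all genes under that filter. The share of all genes called was not counted under this filter or under the alternatives below, so these counts have no such share beside them. The median of all genes lay at 0.28 (log2) for stomach minus small bowel in the main fit and at -0.06 after normexp background correction. Levels in each were taken relative to the 75th percentile. The median of the 82 members lay at 0.28 and 0.07. For colon minus small bowel, these medians were 0.00 and 0.33 over all genes and -0.18 and 0.35 over the members. Under normexp the split of calls became 13 higher and 4 lower for stomach minus small bowel, 16 higher and 15 lower for stomach minus colon, and 10 higher and 8 lower for colon minus small bowel. With the scan day as a random block in place of the slide, the stomach excess over the small bowel of Kcna3, Kcna10, Kcnj11, Kcnj15 and Kcnmb1 was no longer called (adjusted p 0.0795 to 0.212), although their differences stayed at 0.84 to 1.12, beside 0.85 to 1.06 with the slide. The count became 12 higher and 4 lower. Median scaling gave 16 higher and 4 lower for stomach minus small bowel, and quantile normalization 18 and 4. For ileum minus jejunum, median scaling gave 1 higher and 3 lower in place of 3 and 2.

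**Figure D1:**
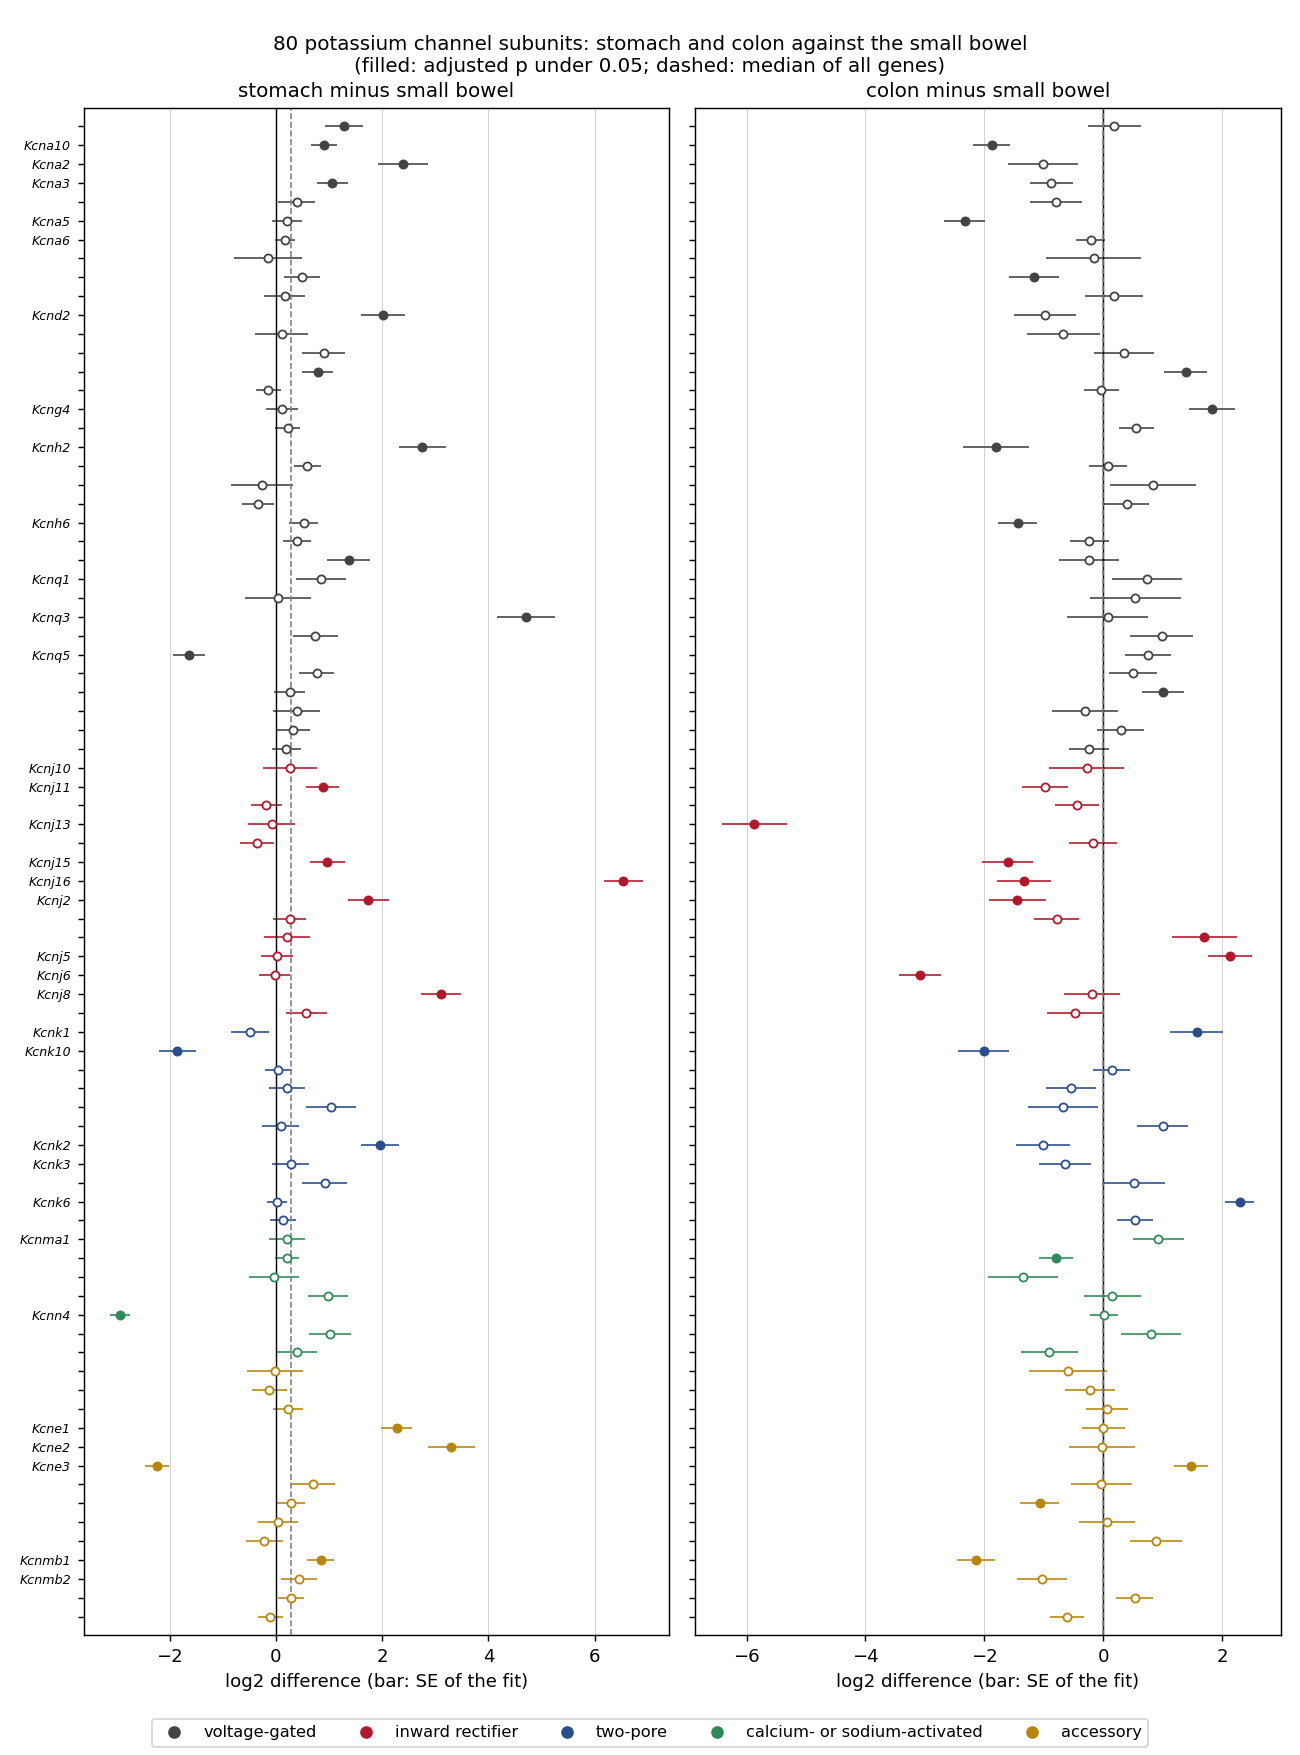
Fitted log2 difference of 80 tested members for stomach minus small bowel (left) and colon minus small bowel (right), grouped by family, with the SE of the fit as bars; filled points have an adjusted p under 0.05, names are given for members described in the text, tandem-pore genes are in blue, the solid line is 0 and the dashed line the median of all genes. Kcnj16 lies farthest to the right for the stomach (6.54) and Kcnn4 farthest to the left (-2.93), while Kcnj13 lies farthest to the left for the colon (-5.87).

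To be named for 1 segment, a member had to lie above all 4 remaining segments, each time at an adjusted p under 0.05. This held for 14 of 82 members (17.1%), beside 7.58% of all genes. The stomach held 11 of them, among which were Kcnj16, Kcnj8, Kcnj2, Kcne1, Kcne2, Kcnk2, Kcnd2, Kcnq3, Kcnh2 and Kcna2. Of these, Kcnj16, Kcnj8, Kcnj2, Kcnk2, Kcnq3, Kcnh2 and Kcna2 had entered through the stomach alone, so the share of 17.1% depends on the filter and is given as a description. The colon held 3, Kcnk6, Kcnj5 and Kcng4, and the duodenum, jejunum and ileum held 0. Without the stomach's flags in the filter, 8 members were highest in a segment, and the share of all genes was not counted there. The reverse pattern, lowest in a segment, was looked at after the values were seen: 7 members were lowest in the colon (Kcna10, Kcna5, Kcnh6, Kcnj13, Kcnj15, Kcnj6 and Kcnmb1) and 2 in the stomach (Kcne3 and Kcnn4), beside 1625 and 1599 of all 33825 genes.

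**Figure D2:**
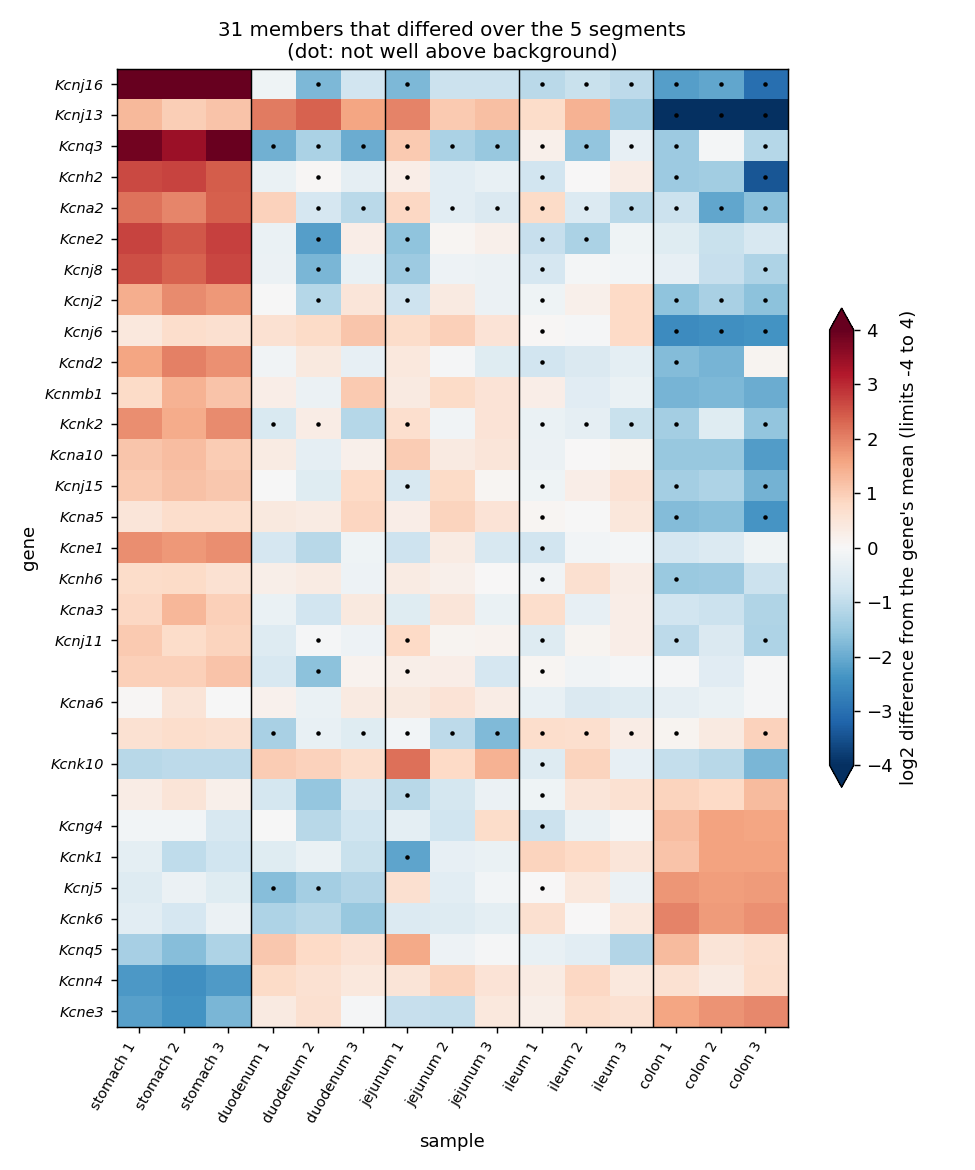
Of the members that differed over the 5 segments, 31 (rows, with names for those described in the text) in all 15 samples (columns), as the log2 difference from the gene's mean over the samples, with colours ending at -4 and 4; dots mark values not well above background, and rows follow the difference between stomach and colon. Red stomach columns at the top and red colon columns near the bottom hold the genes of each end, and all dots lie outside the stomach.

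The promoters of 4 members with contrasting patterns are shown because they lie at the start of the genes that the results below turn on. Kcnj16 and Kcne1 were highest in the stomach, Kcne3 was lowest there, and Kcnj13 was lowest in the colon. Each sequence is the 250 bases before the gene's start, from RefSeq (GRCr8), read on the gene's strand, with matches to 6 searched motifs in capitals.
Kcnj16, chr10:96517074-96517323, plus strand: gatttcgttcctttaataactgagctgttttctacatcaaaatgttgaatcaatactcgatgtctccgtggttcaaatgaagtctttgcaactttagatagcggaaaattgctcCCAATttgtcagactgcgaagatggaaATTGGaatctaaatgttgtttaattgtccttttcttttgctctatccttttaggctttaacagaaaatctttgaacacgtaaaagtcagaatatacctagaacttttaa
Kcne1, chr11:45077034-45077283, minus strand: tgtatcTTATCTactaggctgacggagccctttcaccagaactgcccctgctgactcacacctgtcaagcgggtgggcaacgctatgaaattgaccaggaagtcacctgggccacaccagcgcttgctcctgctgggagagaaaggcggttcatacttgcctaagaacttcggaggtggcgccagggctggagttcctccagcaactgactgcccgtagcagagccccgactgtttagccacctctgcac
Kcne3, chr1:163935785-163936034, plus strand: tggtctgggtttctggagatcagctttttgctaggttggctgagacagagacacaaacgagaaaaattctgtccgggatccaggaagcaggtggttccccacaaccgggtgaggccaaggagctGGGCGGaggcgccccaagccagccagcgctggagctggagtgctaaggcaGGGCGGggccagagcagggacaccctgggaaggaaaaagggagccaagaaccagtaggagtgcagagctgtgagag
Kcnj13, chr9:95518987-95519236, minus strand: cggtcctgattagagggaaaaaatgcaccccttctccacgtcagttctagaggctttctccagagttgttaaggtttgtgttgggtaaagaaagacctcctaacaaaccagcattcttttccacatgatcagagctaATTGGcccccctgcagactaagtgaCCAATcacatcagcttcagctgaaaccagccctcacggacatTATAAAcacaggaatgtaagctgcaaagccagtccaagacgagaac
The motifs, searched on both strands with overlaps allowed, were TATAAA for the core promoter box of that kind, CCAAT for the box of that name, GGGCGG for the box bound by Sp factors, AGATAA for the factors named after its core, TGTTTAC for forkhead factors and GTTAAT for hepatocyte nuclear factors. Kcnj13 held a TATAAA 46 bases before its start and a CCAAT on each strand, Kcnj16 held a CCAAT on each strand, Kcne3 held 2 copies of GGGCGG, and Kcne1 held an AGATAA on the opposite strand. Over 27457 promoters of the same length, 13.1% held TATAAA, 34.3% CCAAT, 32.4% GGGCGG, 10% AGATAA, 3.25% TGTTTAC and 6.46% GTTAAT. Among the 57 of 88 member genes with a promoter in the RefSeq table, 3.51% held TATAAA and 47.4% GGGCGG. The GC content was 33.6% for Kcnj16 and 46.8% for Kcnj13, against 57.6% for Kcne1 and 59.6% for Kcne3, with a median of 52.0% over all promoters. These matches describe letters, and binding was not measured.

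Kcnj16 showed the largest stomach difference of the 82 members. It encodes an inward rectifier that works mainly in mixed channels with Kcnj10 or Kcnj15. Its probe lies at chr10:100515861-100515920 (rn4). Its level was 2.17, 1.97 and 2.21 in stomach 1 to 3. The duodenum gave -3.57, -5.19 and -4.15, the jejunum -5.19, -4.25 and -4.24, the ileum -4.47, -4.27 and -4.44 and the colon -5.60, -5.47 and -6.42. Every stomach sample lay above every other sample by more than 5 log2 units, and only 4 of 9 small bowel samples and 0 of 3 colon samples were well above background. The fitted difference between stomach and small bowel was 6.54 ± 0.36 (adjusted p = 5.58e-10). The stomach exceeded the ileum, with 0 of 3 samples above background, at least 41.7-fold (measured means 2.12 and -4.39, adjusted p = 1.06e-08) and the colon at least 109-fold, bounds set by the weakest signal that counted as above background in each sample of the dimmer segment. Measured means for the latter were 2.12 in the stomach and -5.83 in the colon (fitted adjusted p = 1.08e-08). Under normexp the stomach difference from the small bowel was 4.505. The colon also fell below the small bowel by 1.33 (adjusted p = 0.0401). No lower bound can be set on that fall, since the colon was at background and only 4 of 9 small bowel samples were above it. For this contrast normexp gave 0.34 in the other direction, and quantile normalization gave -0.57 (adjusted p = 0.482). Leaving out any of 9 samples ended the call (stomach 1, 2 or 3, duodenum 3, jejunum 2 or 3, ileum 2, colon 1 or 3, with adjusted p 0.0549 to 0.107).

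The partners of Kcnj16 did not show such a rise. Kcnj10, an inward rectifier that is also typical of glia, was at -4.24, -3.72 and -4.93 in the stomach and was well above background in 5 of 15 samples. Its stomach difference from the small bowel was 0.27 ± 0.51 (adjusted p = 0.726). Kcnj15 stood at -1.61, -1.49 and -1.59 in the stomach, between -3.31 and -1.87 over the small bowel, and at -4.01, -3.90 and -4.54 in the colon. The 3 stomach samples lay above, and the 3 colon samples below, all 9 of the small bowel. The Kcnj15 probe was well above background in 7 of 9 small bowel and 1 of 3 colon samples, so background limits the size of a fall there. Kcnj15 exceeded the small bowel 1.96-fold in the stomach (0.97 ± 0.34, adjusted p = 0.0416) and fell by 1.61 ± 0.42 in the colon (3.05-fold, adjusted p = 0.0105). Leaving out any of 10 samples ended the stomach call (stomach 1, 2 or 3, duodenum 1 or 2, jejunum 1 or 3, ileum 1 or 2, colon 1; adjusted p 0.0503 to 0.15), and normexp ended both, with 0.31 and -0.15. Kcnj2, the inward rectifier next to Kcnj16 in the RefSeq order of protein-coding genes, was at -2.62, -2.17 and -2.34 in the stomach against -5.19 to -3.25 in the small bowel. Its difference was 1.74 ± 0.38 (3.34-fold, adjusted p = 0.00229) and 0.47 (adjusted p = 0.191) under normexp. In the colon Kcnj2 was at -5.68, -5.35 and -5.70, not well above background in any of the 3 samples. That lay 1.45 below the small bowel (adjusted p = 0.0351), where 6 of 9 samples were well above background. The call ended without stomach 1, 2 or 3, duodenum 3, jejunum 2 or 3, ileum 3, or colon 1 or 3 (adjusted p 0.05 to 0.116). For the same contrast normexp gave 0.37 and quantile normalization -0.91 (adjusted p = 0.206). Kcnj1, the renal outer medullary inward rectifier, was well above background in 1 sample and was not tested.

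The Kcne accessory subunits divided between stomach and bowel. Kcne2, which keeps Kcnq1 channels open in the parietal cell's apical membrane, was at -0.23, -0.43 and -0.19 in the stomach. The duodenum gave -3.20, -5.12 and -2.66, the jejunum -4.53, -2.84 and -2.73, the ileum -3.86, -4.18 and -3.10 and the colon -3.40, -3.82 and -3.57. The stomach samples did not overlap with any other, and 5 of 9 small bowel and 3 of 3 colon samples were above background. Kcne2 was 9.84-fold higher in stomach than in small bowel (3.30 ± 0.45, adjusted p = 2.49e-05) and 10-fold higher than in colon (3.32 ± 0.63, adjusted p = 7e-04). After normexp these differences were 1.96 and 1.39. Kcne1, the partner of Kcnq1 in heart and inner ear, was at 0.27, 0.13 and 0.27 in the stomach, between -2.72 and -1.28 in the small bowel, and at -2.26, -2.14 and -1.76 in the colon. Its stomach level stood 4.85-fold above the small bowel (2.28 ± 0.29, adjusted p = 1.33e-05) and 4.83-fold above the colon (2.27 ± 0.41, adjusted p = 0.00046), or 1.59 and 1.43 under normexp. The other 4 segments did not separate for Kcne1 or Kcne2: neighbours in the order of their means had adjusted p-values of 0.743 or more.

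Kcne3 ran the opposite way. It turns Kcnq1 into a constantly open channel of the basolateral membrane in intestinal crypts. It was at -0.48, -0.68 and -0.12 in the stomach. Duodenal levels were 2.06, 2.34 and 1.66, jejunal 0.78, 0.75 and 2.12, ileal 1.92, 2.39 and 2.30 and colonic 3.28, 3.49 and 3.62. Every stomach sample was below, and every colon sample above, all 9 of the small bowel. Kcne3 was 4.72-fold lower in stomach than in small bowel (-2.24 ± 0.23, adjusted p = 1.04e-06), 2.79-fold higher in colon than in small bowel (1.48 ± 0.29, adjusted p = 0.00126) and 13.1-fold lower in stomach than in colon (-3.72 ± 0.32, adjusted p = 3.1e-07). The colon and the ileum, neighbours in that order, did not differ beyond the threshold (adjusted p = 0.0772).

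Kcnq1, the pore that these accessory subunits join, was not called. Its level was -1.35, -1.28 and -1.26 in the stomach. Beyond it, the duodenum read -1.91, -2.00 and -2.44, the jejunum -4.64, -2.14 and -2.25, the ileum -1.50, -0.88 and -1.57 and the colon -1.80, -1.56 and -0.42. Jejunum 1, which was not well above background for this probe, was lowest. The F test gave an adjusted p of 0.0638. The stomach differed from the small bowel by 0.85 ± 0.47 (adjusted p = 0.197) and the colon by 0.73 ± 0.59 (adjusted p = 0.385). The probe lies at chr1:203733028-203736907 (rn4), a span longer than a probe.

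**Figure D3:**
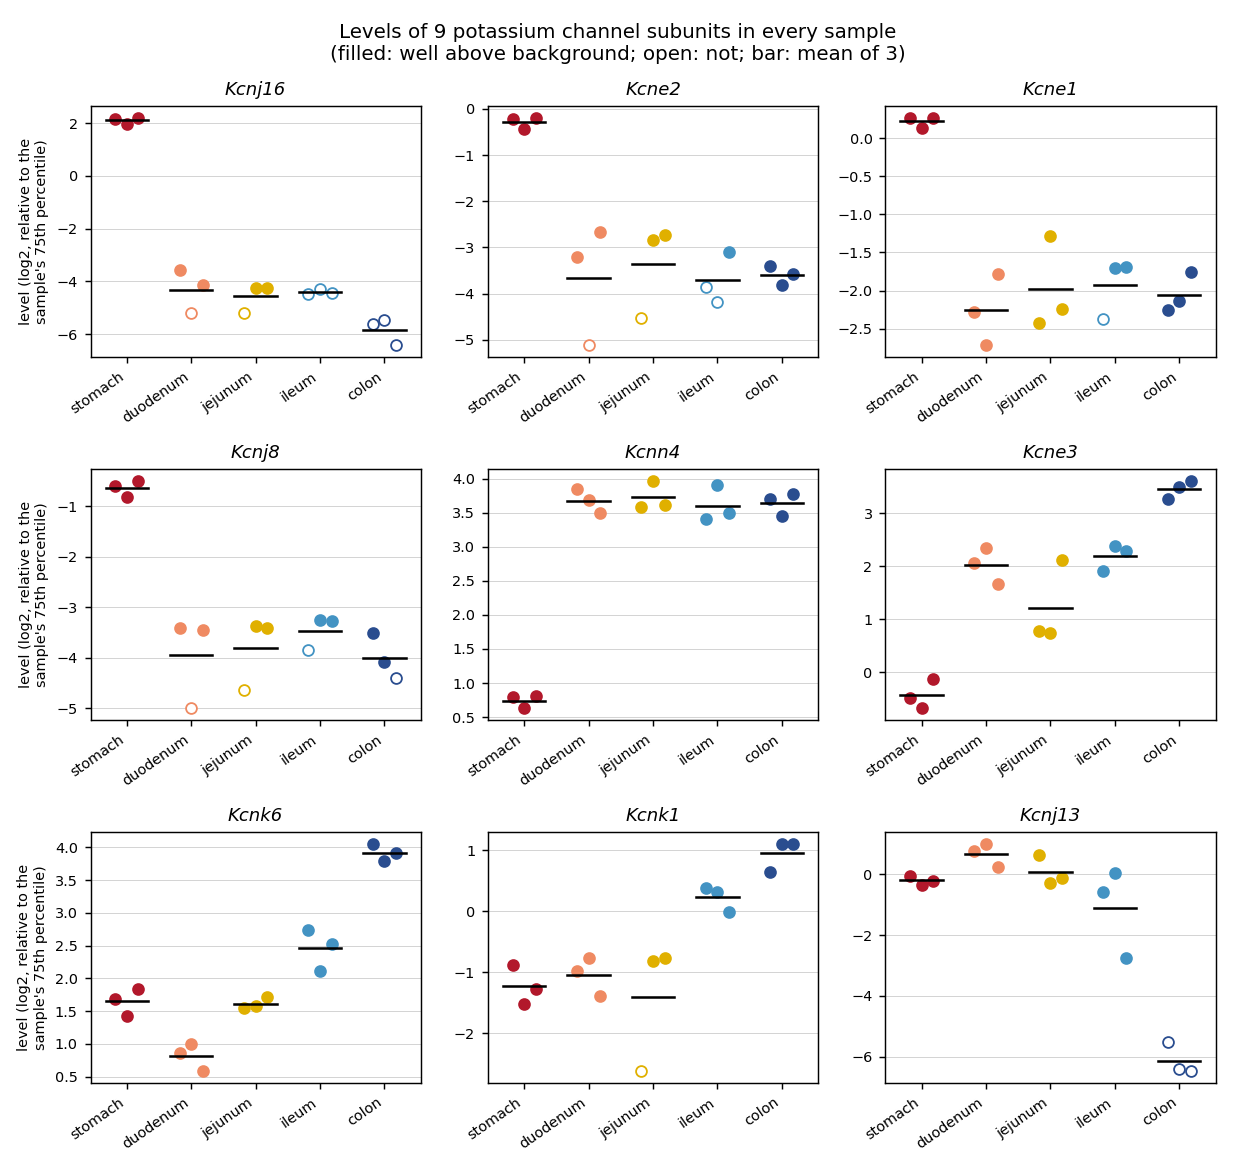
Levels (log2, relative to each sample's 75th percentile) of 9 members in all 15 samples, with 3 points per segment, the mean as a bar, and open points where the probe was not well above background; each panel has its own axis. The 3 stomach points of Kcnj16, Kcne2, Kcne1 and Kcnj8 lie above all others, those of Kcnn4 and Kcne3 lie below all others, the colon points of Kcnk6 lie highest, and the colon points of Kcnj13 lie lowest and are all open.

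Kcnn4 was high along the whole bowel and low in the stomach. It encodes the calcium-activated channel of intermediate conductance whose opening supports chloride secretion. Its probe lies at chr1:79628697-79628756 (rn4) and was above background in all 15 samples. The level was 0.79, 0.63 and 0.81 in the stomach. The duodenum gave 3.84, 3.69 and 3.50, the jejunum 3.59, 3.97 and 3.61, the ileum 3.40, 3.91 and 3.49 and the colon 3.70, 3.45 and 3.78. The 12 bowel samples spanned less than 0.6 log2 units, and the stomach samples lay more than 2.5 below them. Kcnn4 was 7.6-fold lower in stomach than in small bowel (-2.93 ± 0.19, adjusted p = 3.77e-09) and 7.68-fold lower than in colon (-2.94 ± 0.27, adjusted p = 5.02e-07). Neighbours in the order of the bowel segments had adjusted p-values of 0.825 to 0.999. Of the other calcium- or sodium-activated pores, Kcnma1, the large-conductance pore, was at -2.55, -2.21 and -2.42 in the stomach and -1.74, -1.76 and -1.49 in the colon. Its colon difference from the small bowel was 0.93 ± 0.43 (adjusted p = 0.123).

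An accessory subunit of the large-conductance channel showed a fall in the colon on 1 of its 2 probes. Kcnmb1, the accessory subunit typical of smooth muscle, was at 1.28, 1.88 and 1.65 in the stomach, between 0.05 and 1.55 in the small bowel and at -1.36, -1.29 and -1.48 in the colon. On this probe the colon was 4.42-fold lower than the small bowel (-2.15 ± 0.32, adjusted p = 0.000125) and 7.95-fold lower than the stomach (adjusted p = 1.03e-05). The stomach's 1.8-fold excess over the small bowel (0.85 ± 0.25, adjusted p = 0.019) was lost without stomach 2 (0.69, adjusted p = 0.139) or stomach 3 (0.83, adjusted p = 0.0881). A second, dimmer Kcnmb1 probe gave a colon difference of 0.76 ± 0.47 (adjusted p = 0.25) in the other direction, and a stomach minus colon difference of -0.95 ± 0.53 (adjusted p = 0.174). With the mean of both probes all 3 calls ended: colon minus small bowel was -0.69 (adjusted p = 0.164), stomach minus colon 1.02 (adjusted p = 0.0549) and stomach minus small bowel 0.33 (adjusted p = 0.407). Kcnmb2, another accessory subunit of that channel, was called only for stomach minus colon among the 5 contrasts (1.47 ± 0.48, adjusted p = 0.0236), a call lost without stomach 3 (1.38, adjusted p = 0.0902) or colon 3 (1.37, adjusted p = 0.0633). Under normexp the Kcnmb2 difference was 0.38 and the call also ended (adjusted p = 0.208). Kcnmb4 was above background in 1 sample and was not tested. Averaged over 8 measured smooth muscle markers, levels ran from -0.86 to -0.73 in the stomach, -1.83 to -1.03 in the small bowel and -1.55 to -1.32 in the colon; 1 of the 8 was higher and 1 lower in colon than in small bowel.

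Kcnj13 was all but lost in the colon. It is an inward rectifier found with the sodium pump in several epithelia. Its probe lies at chr9:86209630-86209689 (rn4). The level was -0.06, -0.35 and -0.22 in the stomach. Duodenal levels were 0.74, 1.00 and 0.23, jejunal 0.64, -0.31 and -0.14, ileal -0.60, 0.03 and -2.77 and colonic -5.52, -6.39 and -6.47. All 12 samples outside the colon were well above background and all 3 colon samples were not, and ileum 3 was the lowest of the 12. The colon was at least 22.9-fold lower than the small bowel (measured means -6.13 and -0.13, fitted difference -5.87 ± 0.55, adjusted p = 1.17e-06) and at least 21.7-fold lower than the stomach (measured means -6.13 and -0.21, adjusted p = 2.94e-06). Under normexp the fitted differences were -1.89 from the small bowel and 1.85 for stomach minus colon. From duodenum to ileum the means fell in order, but the duodenum and the ileum did not differ beyond the threshold (2.02 ± 0.56, adjusted p = 0.0669).

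A pair of G-protein-gated inward rectifiers moved in opposite directions in the colon. Kcnj5 was at -0.80, -0.89 and -0.87 in the colon and -3.09, -2.79 and -3.05 in the stomach. The small bowel gave -4.27, -3.93 and -3.72 for the duodenum, -1.91, -2.99 and -2.67 for the jejunum and -2.54, -2.13 and -2.80 for the ileum. The colon samples lay above all others, 4.39-fold above the small bowel (2.13 ± 0.38, adjusted p = 0.000577) and 4.33-fold above the stomach (adjusted p = 0.00111). Kcnj6 was at -5.60, -5.52 and -5.46 in the colon, where no sample was above background, against -3.12 to -1.96 in the small bowel and -2.66, -2.37 and -2.43 in the stomach. The colon lay below the small bowel, where 8 of 9 samples were above background (measured means -5.53 and -2.46, fitted difference -3.08 ± 0.36, adjusted p = 1.23e-05). Under normexp the difference was -0.42 (adjusted p = 0.225). A dimmer second Kcnj6 probe, above background in 7 samples, gave a colon difference of -0.30 ± 0.46 (adjusted p = 0.671).

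Both pores of the ATP-sensitive channel were called higher in stomach than in small bowel, Kcnj11 on a call that did not hold under normexp. Both had passed the filter through the stomach alone. Kcnj8, known from vascular smooth muscle and mural cells, was at -0.59, -0.81 and -0.49 in the stomach. Beyond it, the duodenum read -3.40, -5.00 and -3.45, the jejunum -4.63, -3.36 and -3.40, the ileum -3.85, -3.26 and -3.28 and the colon -3.50, -4.09 and -4.40. No sample outside the stomach came within 2 log2 units of it. The difference from the small bowel was 3.11 ± 0.38 (8.62-fold, adjusted p = 8.02e-06) and that from the colon 3.29 ± 0.53 (9.79-fold, adjusted p = 0.00019), or 1.60 and 1.22 under normexp. The Kcnj8 probe was well above background in 6 of 9 small bowel and 2 of 3 colon samples, so background limits the size of these differences. Kcnj11, the pore of pancreatic beta cells, differed from the small bowel by 0.88 ± 0.31 (1.84-fold, adjusted p = 0.0436), with overlapping samples. That call ended without stomach 1, 2 or 3, duodenum 1 or 2, jejunum 2 or 3, ileum 2 or colon 1 (adjusted p 0.0509 to 0.178) and under normexp (0.26, adjusted p = 0.522). Abcc9, the sulfonylurea receptor that joins Kcnj8, was also higher in stomach than in small bowel (1.64 ± 0.41, adjusted p = 0.00568), while Abcc8, the receptor that joins Kcnj11, was not called (0.61 ± 0.35, adjusted p = 0.218). Abcc9 lay below the weakest level that counted as above background in duodenum 1 (-5.77) and 2 (-4.68), jejunum 1 (-3.73) and 2 (-5.48) and ileum 1 (-3.41). Background therefore limits the size of its difference. In the same contrast 7 of 8 markers of fibroblasts and matrix, 4 of 6 of endothelium, 4 of 11 of enteric neurons and glia and 2 of 8 of smooth muscle were higher. Of the smooth muscle markers 1 was lower, and of each of the other lists 0 were. The mean level of the fibroblast list ran from 0.98 to 1.15 in the stomach against -2.63 to -1.22 in the small bowel and -2.71 to -2.60 in the colon. All 8 fibroblast markers were above background in at least 1 sample of each segment. The part of these cells in the result was not tested.

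Among the tandem-pore genes, whose channels carry background current, 2 close relatives rose toward the colon. Kcnk6 was at 1.68, 1.43 and 1.84 in the stomach. The duodenum gave 0.86, 0.99 and 0.58, the jejunum 1.54, 1.58 and 1.71, the ileum 2.74, 2.11 and 2.52 and the colon 4.06, 3.80 and 3.91. The samples of duodenum, jejunum, ileum and colon did not overlap with each other. The colon was 4.91-fold above the small bowel (2.30 ± 0.24, adjusted p = 4.13e-06), 4.83-fold above the stomach (adjusted p = 9.88e-06) and 2.74-fold above the ileum (1.46 ± 0.28, adjusted p = 0.00214). A second Kcnk6 probe, above background in 14 samples, gave 2.31 ± 0.44 for colon minus small bowel (adjusted p = 0.00114). Kcnk1 was at -0.88, -1.51 and -1.28 in the stomach. Duodenal levels were -0.97, -0.76 and -1.39, jejunal -2.62, -0.81 and -0.77, ileal 0.39, 0.31 and -0.01 and colonic 0.65, 1.11 and 1.1. The colon samples lay above all others, and the colon exceeded the small bowel 2.98-fold (1.58 ± 0.44, adjusted p = 0.0153) and the stomach 4.18-fold (2.06 ± 0.50, adjusted p = 0.00429). Without colon 3 the first of these became 1.56 (adjusted p = 0.059), and the colon and the ileum did not differ beyond the threshold (adjusted p = 0.579).

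The mechanosensitive pair of the same family divided. Kcnk2 was at -1.28, -1.67 and -1.25 in the stomach, between -4.30 and -2.47 in the small bowel, where 3 of 9 samples were above background, and at -4.51, -3.63 and -4.72 in the colon. Its fitted stomach difference from the small bowel was 1.96 ± 0.36 (adjusted p = 0.000536), or 0.98 under normexp. Against the ileum, where no sample was above background, the stomach was at least 3.14-fold higher (measured means -1.40 and -3.66, adjusted p = 0.00157). Kcnk10 was at -2.53, -2.49 and -2.48 in the stomach. Beyond it, the duodenum read -0.43, -0.50 and -0.73, the jejunum 0.76, -0.64 and -0.04, the ileum -1.94, -0.55 and -1.76 and the colon -2.39, -2.53 and -3.27. Both ends lay below all small bowel samples, by 1.85 ± 0.34 in the stomach (3.61-fold, adjusted p = 0.00057) and 2.01 ± 0.43 in the colon (4.02-fold, adjusted p = 0.0027); the colon difference was -0.62 under normexp. Kcnk3, an acid-sensitive background channel, was not called in either contrast (0.28 ± 0.35, adjusted p = 0.59, and -0.64 ± 0.44, adjusted p = 0.306). No probe on the array carried the name Kcnk5.

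The voltage-gated genes gave 11 of 36 members higher and 1 lower in stomach than in small bowel, beside 15.5 and 11.8% of all genes. Among the 11, Kcnq3, Kcnh2 and Kcna2 had passed the filter through the stomach alone, so this count depends on the filter and is given as a description. Kcnq3, a pore of the neuronal M current, was at -0.45, -0.90 and -0.37 in the stomach and was above background in 0 of 9 small bowel samples, so the stomach was at least 10.4-fold higher (measured means -0.57 and -5.28, fitted difference 4.70 ± 0.55, adjusted p = 4.78e-06); the fitted difference was 2.08 under normexp. Kcnh2, which repolarises heart and smooth muscle cells, was at -0.48, -0.43 and -0.70 in the stomach, between -3.91 and -2.84 in the small bowel and at -4.59, -4.52 and -6.54 in the colon. It was 6.76-fold higher in stomach than in small bowel (2.76 ± 0.44, adjusted p = 0.000143) and 1.64 higher (log2) under normexp. Its colon fell below the small bowel by 1.81 (adjusted p = 0.0239), a call lost without duodenum 2 (-1.75, adjusted p = 0.057) or with quantile normalization (-1.29, adjusted p = 0.0511) and turned to 0.31 under normexp. The Kcnh2 probe was well above background in 6 of 9 small bowel and 1 of 3 colon samples.

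Further voltage-gated members were higher in the stomach. Kcnd2, a transient channel of neurons, was at -0.20, 0.23 and 0.04 in the stomach against -2.53 to -1.36 in the small bowel, a difference of 2.01 ± 0.41 (4.04-fold, adjusted p = 0.00139). Kcna2, of the axonal delayed rectifiers, was at -2.68, -2.87 and -2.44 in the stomach and above background in only 1 other sample. Its difference of 2.39 ± 0.47 (adjusted p = 0.000882) became 0.56 (adjusted p = 0.228) under normexp. Kcna3, the main voltage-gated channel of T cells, was at -0.41, 0.10 and -0.27 in the stomach, -1.98 to -0.51 in the small bowel and -2.00, -2.10 and -2.43 in the colon. Its stomach excess over the small bowel (1.06 ± 0.29, 2.09-fold, adjusted p = 0.0115) was lost without stomach 2 (0.94, adjusted p = 0.0856) or stomach 3 (1.05, adjusted p = 0.0627). Of 6 T cell markers, 0 were called higher and 3 lower in stomach than in small bowel, and the rest were not called. Their mean levels were -1.84 to -1.50 against -0.47 to 1.48. The part of T cells in the Kcna3 result was not tested.

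A pair of Kcna genes was lowest in the colon. Kcna10 was at -1.83, -1.84 and -2.55 in the colon, between -0.69 and 0.69 in the small bowel and at 0.79, 0.93 and 0.70 in the stomach. The colon fell 3.66-fold below the small bowel (-1.87 ± 0.31, adjusted p = 0.000347) and 6.88-fold below the stomach (adjusted p = 1.74e-05), and the former became -1.02 under normexp. The stomach's 1.88-fold excess over the small bowel (adjusted p = 0.0107) was lost without stomach 2 (0.90, adjusted p = 0.0559) or stomach 3 (0.86, adjusted p = 0.0751). Kcna5 was at -4.15, -4.09 and -4.77 in the colon, above background in 1 of 3 samples, against -2.43 to -1.52 in the small bowel. The fitted difference was -2.33 ± 0.35 (adjusted p = 0.000145), and -0.42 (adjusted p = 0.149) under normexp. Kcng4, a silent subunit that modifies other voltage-gated pores, rose instead: it was at 0.83, 1.2 and 1.18 in the colon against -1.52 to 0.33 in the small bowel and -0.50, -0.52 and -1.04 in the stomach, a 3.56-fold excess over the small bowel (1.83 ± 0.38, adjusted p = 0.00206). Besides Kcnn4, Kcne3 and Kcnk10, the fourth member lower in stomach than in small bowel was Kcnq5 (-1.64 ± 0.31, adjusted p = 0.000654), named after its values were seen. Its second probe gave 0.06 (adjusted p = 0.938).

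**Figure D4:**
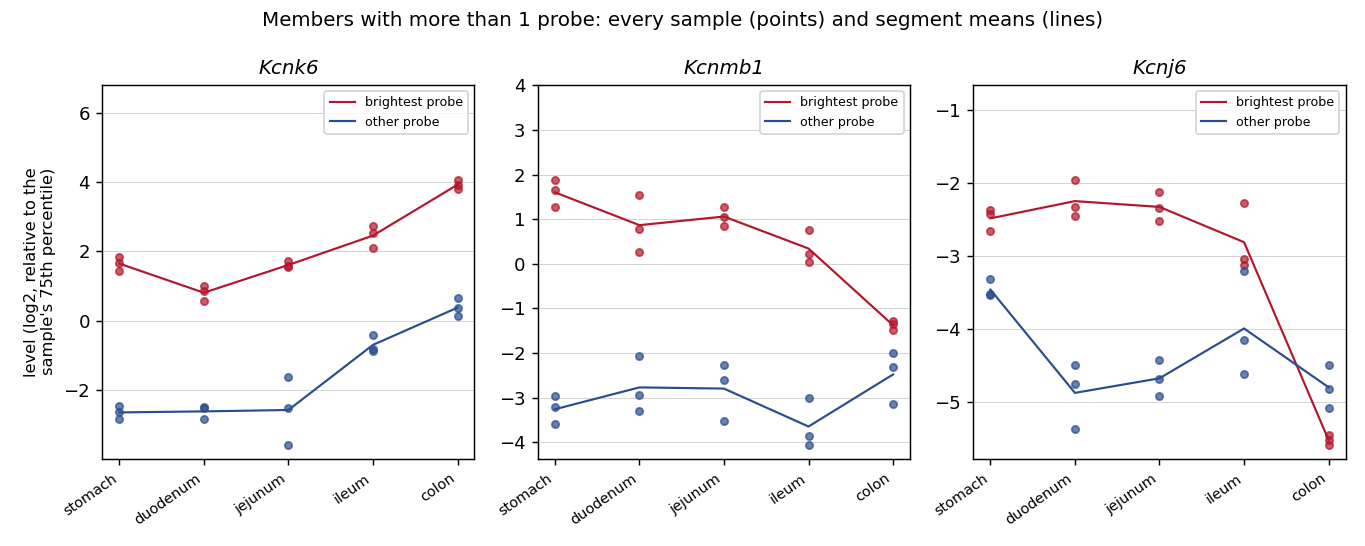
Levels (log2, relative to each sample's 75th percentile) of every tested probe of Kcnk6, Kcnmb1 and Kcnj6, with points for samples and lines through the segment means; red is the brightest probe, which stands for the gene. Both Kcnk6 probes rise to the colon, while the dimmer probes of Kcnmb1 and Kcnj6 do not follow the fall of the brightest one there.

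Within the small bowel few members differed. Between duodenum and jejunum, which shared 3 arrays as pairs, 1 of 82 members was called lower in the duodenum (1.22%, beside 0.272% of all genes) and 0 higher (beside 0.245%), with 6 at an unadjusted p under 0.05. This was Kcnj5, with differences of -1.59, -2.02 and -0.73 within the 3 arrays (-1.45 ± 0.29, adjusted p = 0.0339). Its probe was well above background in 1 of 3 duodenum samples (duodenum 3), so background limits the size of these differences. The count was 0 under normexp, quantile normalization and the fit without the slide as a block, and the call ended without stomach 1, 2 or 3, duodenum 1 or 2, jejunum 1 or 3, or colon 1 or 2 (adjusted p 0.0507 to 0.774). Without jejunum 2, 3 members were called, and without colon 3, 2. Between ileum and jejunum, 3 members were higher in the ileum (3.66%, beside 1.48% of all genes) and 2 lower (2.44%, beside 2.75%). The higher ones were Kcnk1 (1.75 ± 0.43, 3.35-fold, adjusted p = 0.0308), Kcne3 (1.16 ± 0.28, 2.23-fold, adjusted p = 0.0281) and Kcnk6 (0.86 ± 0.23, 1.81-fold, adjusted p = 0.0477), all 3 of which were also higher in colon than in small bowel. Ileum 1 and jejunum 1 had the smallest shares of probes above background (44.2 and 52.2%), and without these and duodenum 2 (64.6%) the count was 1, with Kcnk1, Kcne3 and Kcnk6 no longer called (adjusted p 0.119, 0.0937 and 0.174). The count was also 1 with the scan day as the block.

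Among the members lower in the ileum, Kcna6, a delayed rectifier, fell by 0.91 ± 0.24 (1.88-fold, adjusted p = 0.0405), lost without stomach 1, 2 or 3, duodenum 1, jejunum 1 or 3, ileum 1, 2 or 3, or colon 2 (adjusted p 0.055 to 0.13). Processing alternatives ended the Kcna6 call too, among them normexp (-0.26, adjusted p = 0.656) and quantile normalization (-0.78, adjusted p = 0.102). Kcnk1 was lost without jejunum 1 (1.01), ileum 1 (1.67), ileum 2 (1.71), ileum 3 (1.86) or colon 3 (1.75), with adjusted p 0.0579 to 0.133. Kcne3 was lost without jejunum 1 (0.95), ileum 2 (1.06) or ileum 3 (1.11). Kcnk6 was lost without any of 11 samples (stomach 1, 2 or 3, duodenum 1, jejunum 1 or 3, ileum 1 or 3, colon 1, 2 or 3; adjusted p 0.053 to 0.169). The count of 5 became 1 without jejunum 1 or ileum 3, 2 without ileum 1, 3 without stomach 1, 2 or 3, duodenum 1, jejunum 3, ileum 2, or colon 2 or 3, 8 without duodenum 3 and 11 without jejunum 2.

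Pumps and transporters that work beside potassium channels also differed between segments. Of 21 measured genes of a list of 23, 10 were higher and 2 lower in stomach than in small bowel (all genes: 15.5% higher, 11.8% lower), with a median difference of 0.62 beside 0.28 over all genes. In colon against small bowel, 10 were higher and 0 lower (all genes: 12.5 and 13.1%), with a median of 0.66 beside 0.00. Between stomach and colon, 7 were higher and 4 lower in the stomach (all genes: 20.8 and 14.4%), and within the small bowel 0 were called. Atp4a, which encodes the proton pump's catalytic subunit, was higher in stomach than in small bowel by 9.68 ± 0.33 (adjusted p = 1.93e-12). The size of that difference is limited at both ends. Atp4a lay below the weakest level that counted as above background in duodenum 2 (-5.11), jejunum 1 (-4.69) and ileum 1 (-3.88). In stomach 3 its level (5.84) was close to those of Muc5ac (5.83), Ghrl (5.83) and Dcn (5.84), and saturation of these probes was not tested. Slc12a2, which loads chloride for secretion, was higher in colon than in small bowel by 2.14 ± 0.57 (adjusted p = 0.0109), as was Cftr, the apical chloride channel (1.07 ± 0.35, adjusted p = 0.0321).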

How the data were processed

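Transcript levels of 15 samples, 3 for each of 5 segments, were read from Agilent rat arrays. The processed intensities, as deposited, had been background-subtracted and dye-normalized within each array by Agilent Feature Extraction 8.5.1.1, 9.5.1.1, 9.5.3.1 or 10.1.1.1, per the file headers; the deposited value table holds the same intensities. The channel labelled for the sample was used. Flagged outlier spots were dropped, replicate spots averaged and log2 values taken relative to the sample's 75th percentile. All genes entered 1 limma model (limma 3.58.1, R 4.3.3; lmFit with segment and dye as fixed terms, slide as a random block with an estimated correlation of 0.361, eBayes with an intensity trend), and every p-value is two-sided and adjusted by Benjamini-Hochberg over all genes, unless called unadjusted. Error terms after ± are standard errors of that fit. The script was checked on simulated data.

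The members and lists were chosen with earlier results of these data known. Named genes were a list of 25 epithelial channels, in each contrast up to 10 called members without overlapping samples, every member highest in 1 segment, and up to 8 members by the F test. Alternatives covered background correction (normexp, offset 50, on the median signal in all samples), scaling, filters, probe choice, blocks, the dye term, the intensity trend, outlier spots, the deposited table and each sample left out; leaving out the 3 dim samples and a stricter naming of probes were added after seeing the data. Stated probe positions are those of the files, in rn4. The number of arrays limits the precision. Some genes are not reported here, and counts over all members include them.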

Additional observations from a re-analysis of the deposited data

Results flagged for a closer look

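On 7 arrays, 1 channel belonged to no sample of the series and entered no comparison. In those channels, between 35 and 82 of the 82 members were well above background. The channels beside the stomach samples held 82, 82 and 81, those beside the ileum samples 58, 73 and 80, and that beside colon 3 held 35. What was hybridised there is not given in the sources used here.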

How the results depend on the processing

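For 63 contrasts of named members, 803 of 863 values under the processing alternatives kept their direction and their call, 56 lost the call and 4 reversed. All 4 reversals came under normexp (offset 50). They were Kcnj2 (0.373), Kcnj16 (0.341) and Kcnh2 (0.311) for colon minus small bowel and Kcna2 (-0.002) for stomach minus colon. The median of all genes for colon minus small bowel was 0.003 in the main fit and 0.33 under normexp. With 1 sample left out, 860 values kept both, 85 lost the call and 0 reversed. The count for duodenum minus jejunum was 0 under normexp, quantile normalization, no slide block and without the 3 dim samples, 2 without the dye term, and 0 to 3 with 1 sample left out. That for ileum minus jejunum was 1 with the scan day as block, with no intensity trend and without the 3 dim samples, and 1 to 11 with 1 sample left out. Members highest in 1 segment numbered 8 when the filter did not use the stomach, and 10 to 15 with 1 sample left out. The cause of these changes was not tested, apart from the smaller number of members tested under that filter (64). With 1 sample left out, the F test called 27 to 40 members, and the counts were 17 to 24 for stomach minus small bowel, 16 to 23 for colon minus small bowel and 27 to 35 for stomach minus colon. With a replicate block, the counts were 44, 24, 29 and 40 in the same order, 0 for duodenum minus jejunum, 2 for ileum minus jejunum and 17 highest in 1 segment. Shares of all genes called were not counted under any of these alternatives. Samples sharing a number did not deviate together: over 30 such pairs the correlations ran from -0.42 to 0.292, with 6 over 0.1. Probes near background limit the low levels, most of all in ileum 1.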
